A study of Mus musculus with 2 samples.

Results

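Potassium channel genes are described here in the newborn mouse kidney. The members are all protein-coding genes whose symbol is Kcn followed by family letters and a number. In the annotation of the mm10 assembly 92 of 21474 protein-coding genes present in both deposited gene tables have such a symbol, in 20 families. Within the set each gene was taken by its symbol, whatever its level, so the set holds pore-forming subunits and auxiliary subunits alike. Each library was made from total RNA of both kidneys of 1 pup of the strain B6NCrl on postnatal day 0, and the pups had the same mother. The labels put the 2 libraries in 1 group, give no treatment or genotype and do not give the pups' sex. With 1 group there were no conditions to compare and no test was possible, so genes were compared with each other inside the tissue and the spread between the littermates is the error. That spread leaves out variation between litters.

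Potassium channels let potassium pass the cell membrane along its gradient and so set the membrane voltage. In the kidney they also carry potassium itself: channels in the basolateral membrane recycle the potassium that the sodium pump takes up, and channels in the apical membrane of the thick ascending limb and the collecting duct return potassium to the tubule fluid. The Kcnj genes encode inward rectifiers, the Kcnk genes background channels with tandem pore domains, the Kcnq genes slowly activating voltage-gated channels and the Kcnn genes channels opened by calcium. The Kcne, Kcnip, Kcnab and Kcnmb genes encode auxiliary subunits that form no pore of their own.

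The part of a pore-forming subunit that selects potassium is a short loop with a conserved core, most often glycine, tyrosine and glycine. The stretches listed here show the coding sequence around this core for the 7 members with a pore that averaged more than 10 TPM (a transcript's share of all transcripts in a library, scaled to a fixed total and corrected for length). Capitals mark the 9 in-frame bases that match GGNTANGGN or GGNTTNGGN on the coding strand. Each stretch has 24 bases before the match and 21 after it, read 5′ to 3′ from GENCODE M21 transcripts on GRCm38.
Kcnk1, chr8:125995790-126025040, plus strand, across an intron: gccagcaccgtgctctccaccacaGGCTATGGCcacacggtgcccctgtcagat
Kcnj8, chr6:142566427-142566480, minus strand: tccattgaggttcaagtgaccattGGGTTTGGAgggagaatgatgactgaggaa
Kcnj1, chr9:32396687-32396740, plus strand: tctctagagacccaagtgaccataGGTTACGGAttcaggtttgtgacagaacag
Kcnj16, chr11:111024886-111024939, plus strand: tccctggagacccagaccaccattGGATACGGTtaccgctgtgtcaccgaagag
Kcnj15, chr16:95295962-95296015, plus strand: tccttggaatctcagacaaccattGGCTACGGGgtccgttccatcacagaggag
Kcnk5, first pore, chr14:20145094-20146525, minus strand, across an intron: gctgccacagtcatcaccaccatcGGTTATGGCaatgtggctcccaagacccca
Kcnk5, second pore, chr14:20142450-20144680, minus strand, across an intron: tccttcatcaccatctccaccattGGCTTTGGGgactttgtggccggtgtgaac
Kcnq1, chr7:143184537-143191467, plus strand, across an intron: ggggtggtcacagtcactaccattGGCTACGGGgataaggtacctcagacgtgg

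All 77 members of the pore-forming families had at least 1 such in-frame match in their longest annotated coding sequence, and none of the 15 members of the Kcne, Kcnip, Kcnab and Kcnmb families had one. Among the 21492 protein-coding genes of the annotation with a complete coding sequence, 16.7% had a match. Coding sequences of members were somewhat longer, with a median of 1479 bases against 1188 for all genes. Of the inward rectifiers shown, Kcnj8 has GGGTTTGGA where Kcnj1, Kcnj15 and Kcnj16 have the GGNTANGGN form. Of the tandem-pore genes shown, Kcnk5 had 1 match of each form and Kcnk1 had 1 match only. A pore of Kcnk1 with another core would not be listed.

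Most potassium channel genes were low in the newborn kidney, and a few stood well above the rest. A level of 1 TPM or more in both pups, called detected here, was reached by 37 of 92 members (40.2%), against 61.5% of all protein-coding genes (13214 of 21474). The median member stood at 0.61 TPM, against 4.73 TPM for the median protein-coding gene. Among detected genes the medians were 2.14 TPM for members and 17.8 TPM for protein-coding genes. All members together summed to 260 TPM in pup 1 and 245 TPM in pup 2, which is 0.0300% and 0.0289% of the TPM of protein-coding genes. The 5 highest members, Kcnk1, Kcnj8, Kcnj1, Kcnj16 and Kcnj15, held 55.1 ± 0.412% of that sum (SD, n = 2 pups, as for every mean ± SD here). In bulk tissue, fewer cells of a type and less RNA per cell cannot be told apart.

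**Figure D1:**
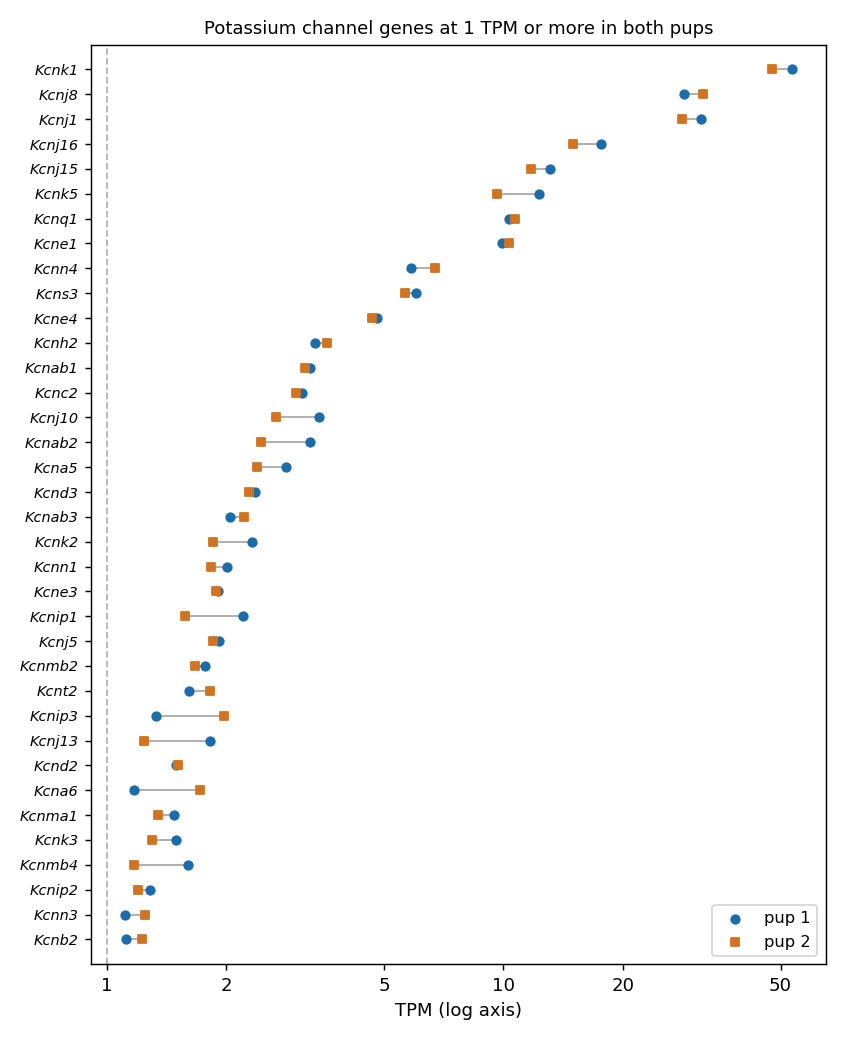
TPM on a log axis of 36 of the 37 potassium channel genes at 1 TPM or more in both pups, with a circle for pup 1, a square for pup 2 and a line joining them. Kcnk1 stands alone at 53.5 and 47.5 TPM, Kcnj8 and Kcnj1 overlap near 30 TPM, and 26 of the 36 genes lie below 5 TPM on average.

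Sequencing depth was 41584961 expected counts in pup 1, against 48823952 in pup 2. Where a gene had no count, a true value of up to 3 counts is allowed, which is 0.0721 CPM in pup 1 and 0.0614 CPM in pup 2 (counts scaled to depth, counting error only). Kidney markers were present, with all 4 thick ascending limb genes detected (summed 370 and 362 TPM in pups 1 and 2), all 4 principal cell genes (753 and 816 TPM), all 4 intercalated cell genes (60.7 and 65.1 TPM), all 4 proximal tubule genes (335 and 247 TPM), all 4 endothelial genes (307 and 322 TPM) and all 4 genes of smooth muscle and pericytes (623 and 520 TPM). Of the distal convoluted and connecting tubule markers 2 of 4 were detected, Pvalb being at 0.20 and 0.34 TPM. Neuron and glia markers were detected for 2 of 6 genes, with sums of 7.04 and 7.35 TPM and with Stmn2 at 5.28 and 5.16 TPM and Elavl3 and Snap25 at 0.07 TPM or less. Heart and skeletal muscle markers were detected for 3 of 6, with sums of 6.77 and 9.92 TPM. Leukocyte markers were detected for 3 of 4 (111 and 121 TPM). None of the 4 adrenal markers was detected, and Cyp11b2 had no expected count.

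The inward rectifier family Kcnj had the highest summed level, and 7 of its 15 members were detected. The family summed to 100 TPM in pup 1 and 94.2 TPM in pup 2, or 38.4% of the TPM of all potassium channel genes in each. The Kcnk family followed with 71.1 and 61.8 TPM, from 4 detected members of 14. Kcnk1 alone made up most of it.

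**Figure D2:**
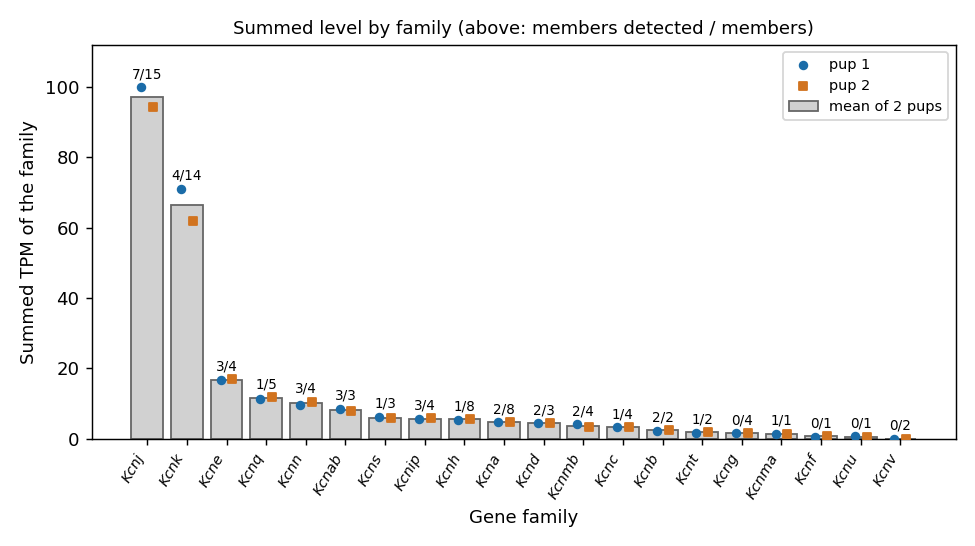
Summed TPM of each potassium channel gene family, with grey bars for the mean of the 2 pups, circles for pup 1, squares for pup 2 and the number of members detected over the number of members above each bar. Kcnj (7 of 15) and Kcnk (4 of 14) stand above all other families, and Kcng, Kcnf, Kcnu and Kcnv have no detected member.

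Kcnj8 and Kcnj1 led the inward rectifiers at levels that could not be ordered. Kcnj8 (ENSMUSG00000030247.7, chromosome 6, 142564837 to 142571614) encodes the pore of the ATP-sensitive potassium channel of vascular smooth muscle and pericytes. It had 28.6 TPM in pup 1 and 31.9 in pup 2, from 1769 and 2431 expected counts. Kcnj1 (ENSMUSG00000041248.8, chromosome 9, 32372493 to 32399197) encodes ROMK, the channel through which the thick ascending limb and collecting duct secrete potassium. Its level was 31.4 and 28.1 TPM, from 2768 and 3049 expected counts. Pup 1 was the higher of the pups for Kcnj1 and the lower for Kcnj8, and the ranges of these genes overlapped.

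The other Kcnj genes stood below Kcnj8 and Kcnj1. Kcnj16 (ENSMUSG00000051497.11, chromosome 11, 110968033 to 111027968), a subunit that forms the basolateral channel of the distal nephron together with Kcnj10, had 17.6 and 15.03 TPM. Kcnj15 (ENSMUSG00000062609.9, chromosome 16, 95257558 to 95300260), a basolateral channel of the proximal tubule in adult mice, had 13.1 and 11.8 TPM. Kcnj10 itself reached 3.43 and 2.67 TPM. The lower pup of Kcnj16 was above the higher pup of Kcnj15, and both were several times the level of Kcnj10 in each pup. The remaining detected Kcnj genes were near the detection level. Kcnj5, a G protein-gated channel of heart and adrenal cortex, had 1.92 and 1.86 TPM, and Kcnj13, known from the retinal pigment epithelium and choroid plexus, had 1.82 and 1.24 TPM. Of the exon bases of Kcnj13, 49.1% overlap exons of Gigyf2 on the opposite strand, and its level is uncertain because the sources do not say whether reads were counted by strand. Among the 8 Kcnj genes not detected, Kcnj14 was highest at 1.08 and 0.64 TPM, and 30.8% of its 50-base windows also occur in the gene Gm5522. Kcnj2 had 0.49 and 0.55 TPM, and Kcnj3, Kcnj4, Kcnj9, Kcnj11 and Kcnj12 were between 0 and 0.28 TPM. Kcnj6 had no expected count in either pup.

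Among the tandem-pore Kcnk genes, Kcnk1 was the highest potassium channel gene of the tissue. Kcnk1 (ENSMUSG00000033998.8, chromosome 8, 125995170 to 126030685) encodes TWIK, a weakly rectifying background channel, and had 53.5 TPM in pup 1 and 47.5 in pup 2 from 3492 and 3820 expected counts. At 50.5 ± 4.19 TPM it ranked 3046 among 21474 protein-coding genes. Both pups lay above every value of any other member. Kcnk5 (ENSMUSG00000023243.8, chromosome 14, 20140057 to 20181809), an alkali-sensitive channel of the proximal tubule, had 12.3 and 9.66 TPM. In pup 1, where Kcnk5 was higher, the proximal tubule markers also summed higher (335 against 247 TPM). Most of that difference in the sum came from Slc34a1 (286.5 against 202.7 TPM). Lrp2 (30.8 against 29.8 TPM), Cubn (12.15 against 10.78) and Slc5a2 (5.82 against 3.97) differed by fewer TPM, each also higher in pup 1. Relative to its level, Slc5a2 differed more than Slc34a1. The part of these markers in the Kcnk5 difference was not tested. The stretch-sensitive channel Kcnk2 had 2.32 and 1.85 TPM, and the acid-sensitive channel Kcnk3 had 1.5 and 1.30 TPM. The highest of the 10 Kcnk genes not detected was Kcnk6 at 0.73 and 0.69 TPM. Kcnk4, Kcnk7, Kcnk9, Kcnk10, Kcnk12, Kcnk13 and Kcnk18 ranged from 0 to 0.39 TPM, and Kcnk15 and Kcnk16 had no expected count.

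In the Kcnq family 1 of 5 members was detected. Kcnq1 (ENSMUSG00000009545.10, chromosome 7, 143106362 to 143427042), the channel that carries the slow repolarising current of the heart and is also found in kidney epithelium, had 10.4 and 10.7 TPM. Kcnq5 had 0.46 and 0.56 TPM, and the neuronal channel Kcnq3 had 0.07 and 0.01 TPM. Of the calcium-activated Kcnn genes, 3 of 4 were detected. Kcnn4 (ENSMUSG00000054342.7, chromosome 7, 24370263 to 24386690), the intermediate-conductance channel of epithelia, lymphocytes and red cells, led with 5.85 and 6.73 TPM. The small-conductance channels Kcnn1 and Kcnn3 had 2.01 and 1.83 TPM and 1.11 and 1.25 TPM, and Kcnn2 had 0.78 and 0.79 TPM.

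The large-conductance calcium-activated channel, BK, which secretes potassium in the adult distal nephron at high tubular flow, was low. Its pore gene Kcnma1 had 1.48 TPM in pup 1 and 1.35 in pup 2. The beta subunits Kcnmb2 and Kcnmb4 were at similar levels, with 1.77 and 1.67 TPM and 1.60 and 1.17 TPM. Kcnmb1, the beta subunit of smooth muscle, had 0.73 and 0.44 TPM and Kcnmb3 0.08 and 0.02 TPM. The gamma subunit genes Lrrc26, Lrrc38, Lrrc52 and Lrrc55 were all under 0.5 TPM in both pups. Of the exon bases of Kcnmb4, 31.5% overlap the antisense genes Kcnmb4os1 and Kcnmb4os2. Among the relatives of this channel, the sodium-activated Kcnt2 had 1.61 and 1.82 TPM, Kcnt1 0.10 and 0.19 TPM, and the sperm channel Kcnu1 0.70 and 0.55 TPM.

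Voltage-gated pore genes of the Kcna, Kcnb, Kcnc, Kcnd and Kcnh families were detected for 8 of 25 members and summed to 20.3 and 20.8 TPM. Kcnh2, the hERG channel of the heart, was highest with 3.35 and 3.60 TPM. Kcnc2, known from fast-spiking neurons, had 3.11 and 3 TPM, from 563 and 668 expected counts. Kcna5, a channel of vascular smooth muscle and heart, had 2.84 and 2.40 TPM. The A-type channels Kcnd3 and Kcnd2 had 2.37 and 2.29 TPM and 1.5 and 1.51 TPM. The delayed rectifier Kcnb2 had 1.12 and 1.23 TPM. Kcna6, a neuronal channel, had 1.17 and 1.72 TPM, but 39.6% of its exon bases overlap Gm26673 on the opposite strand. The part of nerve or muscle cells in these levels was not tested; the defining neuronal markers Elavl3 and Snap25 were lower than each of these 8 genes.

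The other 17 voltage-gated pore genes did not reach 1 TPM in both pups. The cell cycle-linked channel Kcnh1 came nearest, with 0.76 and 1.03 TPM. Kcnd1 had 0.56 and 0.63 TPM, the lymphocyte channel Kcna3 0.60 and 0.48 TPM, and Kcnh7 0.48 and 0.37 TPM. Kcna1, known from the distal convoluted tubule for its part in magnesium uptake, had 0.12 and 0.10 TPM from 31 and 33 expected counts. Kcna2, Kcna4, Kcna7, Kcnc1, Kcnc4, Kcnh3, Kcnh5, Kcnh6 and Kcnh8 were between 0 and 0.27 TPM, and Kcna10 and Kcnh4 had no expected count. Of the 10 modifier genes of the Kcnf, Kcng, Kcns and Kcnv families, whose products open only together with Kcnb subunits, Kcns3 alone was detected, at 6.04 and 5.65 TPM. That was above Kcnb2 in each pup. Kcng2 (0.81 and 0.87 TPM), Kcnf1 (0.63 and 0.76 TPM) and Kcng1 (0.68 and 0.61 TPM) followed, and Kcng3, Kcng4, Kcns1, Kcns2, Kcnv1 and Kcnv2 were between 0 and 0.23 TPM.

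Auxiliary subunit genes were detected for 11 of 15 members (73.3%), against 61.5% of all protein-coding genes. The counts were 7 of 15 for Kcnj, 4 of 14 for Kcnk, 1 of 5 for Kcnq and 8 of 25 for voltage-gated pore genes. They were 5 of 8 for the Kcnn, Kcnma, Kcnt and Kcnu genes and 1 of 10 for the modifier genes. The difference between these counts was not tested. Kcne1 (ENSMUSG00000039639.6, chromosome 16, 92345982 to 92359468), the subunit that slows Kcnq1, led with 9.92 TPM in pup 1 and 10.3 in pup 2. Kcne4, which inhibits Kcnq1, had 4.80 and 4.68 TPM, Kcne3, which holds Kcnq1 open in gut epithelium, 1.91 and 1.89 TPM, and Kcne2 0.11 and 0.09 TPM. All 3 Kcnab genes, cytoplasmic partners of the Kcna channels, were detected, with Kcnab1 at 3.25 and 3.16 TPM, Kcnab2 at 3.26 and 2.45 and Kcnab3 at 2.05 and 2.22. These stood above every Kcna gene but Kcna5 in each pup. Kcnip1, Kcnip3 and Kcnip2, calcium-binding partners of the Kcnd channels, had 2.21 and 1.58, 1.33 and 1.98, and 1.29 and 1.20 TPM. Their order is uncertain, since the authors' posterior mean gave Kcnip2 1.99 and 1.86 TPM, beside 2.20 and 1.58 for Kcnip1 and 1.41 and 2.03 for Kcnip3. Kcnip4 lay just under the detection level with 0.84 and 1.06 TPM.

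In the order of the 37 detected members by mean level, most neighbours could not be told apart. Of 36 pairs of neighbours, 24 had overlapping ranges over the pups and 12 did not. With only 2 pups, ranges can stay apart without a difference between the genes, so the order is descriptive. The gap below Kcnk1, the gap between the Kcnj8 and Kcnj1 pair and Kcnj16, and the gaps from Kcnj16 to Kcnj15 and from Kcne1 to Kcnn4 were among those that did not overlap. At the detection level, the lowest detected members were Kcnb2 and Kcnn3, and 3 members reached 1 TPM in 1 pup only (Kcnip4, Kcnh1 and Kcnj14). Another 52 members were below 1 TPM in both pups. Of these, 5 had no expected count in either pup and 5 had none in pup 1 only.

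Pairs of genes, some for subunits that combine in 1 channel and others for related or alternative channels, were compared as log2 ratios of TPM + 1 within each pup, a scale that understates differences of low genes. Of 20 such pairs of either kind, 13 differed by at least 2-fold in the same direction in both pups. The share among other pairs of genes was not computed, so this count is no result about such pairs as a kind. Kcnj10 was below its partner Kcnj16 by a log2 ratio of -2.07 in pup 1 and -2.13 in pup 2 (mean -2.10 ± 0.0381). Kcnq1 and Kcne1 were nearly level, with log2 ratios of 0.06 and 0.05, though the authors' posterior mean TPM gave a mean of 0.19. Kcnq1 exceeded Kcne3 by 1.99 ± 0.0371 and Kcne2 by 3.39 ± 0.0486. Kcne3 in turn lay below Kcne1 at -1.94 ± 0.0437.

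The ATP-sensitive channel pairs showed the vascular combination far above the pancreatic one. Kcnj8 exceeded Kcnj11, the pore subunit of pancreatic beta cells, by a log2 ratio of 4.53 in pup 1 and 4.90 in pup 2. Kcnj11 itself had 9 and 4 expected counts. Abcc9, the sulfonylurea receptor that joins Kcnj8 in vessels, had 4.17 and 4.46 TPM, against 0.56 and 0.47 TPM for Abcc8, the receptor of beta cells, a log2 ratio of 1.81 ± 0.116. Kcnj8 was above its own partner Abcc9 by 2.55 ± 0.0536. Markers of smooth muscle and pericytes were present (summed 623 and 520 TPM), and their part in the Kcnj8 level was not tested.

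Among the other pairs, Kcnj1 exceeded Kcnma1, the other secretory channel of the distal nephron, by 3.67 ± 0.0542, and Kcnj10 by 2.93 ± 0.0829. Kcnk1 exceeded Kcnk5 by 2.11 ± 0.106, Kcnk3 its relative Kcnk9 by 1.25 ± 0.105, Kcnk2 its relative Kcnk10 by 1.21 ± 0.0636, and Kcnn4 the small-conductance Kcnn3 by 1.74 ± 0.0578. With 1 TPM added, 7 pairs did not differ by 2-fold in both pups. Besides Kcnq1 and Kcne1 these were Kcnj15 to Kcnj16 (-0.37 ± 0.0551), Kcnj11 to Abcc8 (-0.35 ± 0.0940), Kcnd2 to Kcnd3 (-0.41 ± 0.0286), Kcnma1 to Kcnmb1 (0.61 ± 0.132), Kcnmb1 to Kcnmb4 (-0.59 ± 0.00275) and Kcnma1 to Kcnmb4. The last of these had opposite signs in the pups, at -0.07 and 0.11. With 0.1 TPM added the mean log2 ratio was -1.13 for Kcnmb1 to Kcnmb4, 1.18 for Kcnma1 to Kcnmb1 and -1.15 for Kcnj11 to Abcc8, and Kcnmb1 to Kcnmb4 then passed 2-fold in both pups.

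**Figure D3:**
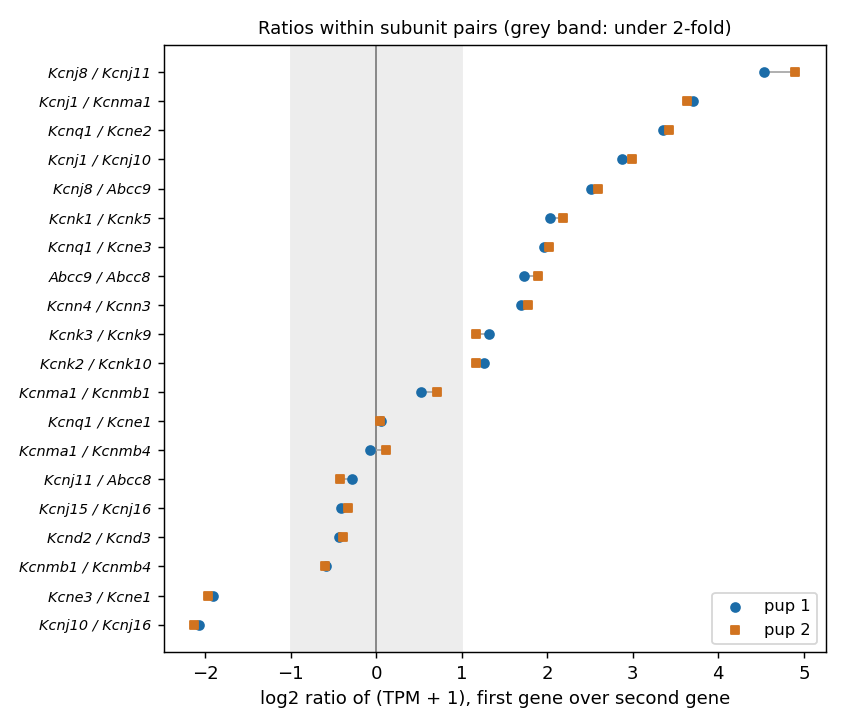
Log2 ratio of TPM + 1, first gene over second gene, for 20 pairs of subunits or related channels, with circles for pup 1 and squares for pup 2; the grey band marks ratios under 2-fold. Kcnj8 over Kcnj11 is the largest ratio at 4.53 and 4.90, Kcnj10 over Kcnj16 the lowest at -2.07 and -2.13, and Kcnq1 over Kcne1 lies at 0.06 and 0.05.

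The partner genes of renal potassium handling spanned a wide range of levels. All 21 genes of the list for the distal nephron were detected, with a median of 35.4 TPM, against 61.5% of all protein-coding genes detected. The list was chosen with earlier results of these data known, so this count is no result about its genes. The sodium pump subunit Atp1b1 had 593 and 584 TPM, above the salt cotransporter of the thick ascending limb Slc12a1 (181 and 176 TPM), Wnk1 (136 and 133 TPM) and the aldosterone-induced kinase Sgk1 (117 and 120 TPM). The sodium channel subunits Scnn1b, Scnn1g and Scnn1a had 69.3 and 60.3, 53.0 and 47.7, and 18.7 and 15.9 TPM. Wnk4 (38.7 and 38.9 TPM), Hsd11b2 (36.9 and 33.8), Cul3 (35.0 and 34.5), Bsnd (33.1 and 32.5), Slc12a3 (31.0 and 31.0), Stk39 (21.8 and 23.4), Atp12a (19.3 and 15.9) and Nedd4l (12.8 and 11.4) lay between. The mineralocorticoid receptor Nr3c2 (6.65 and 6.49 TPM), the proton-potassium pump subunit Atp4a (3.75 and 4.07 TPM) and Klhl3 (2.18 and 2.12 TPM) were lowest. Slc12a1 was thus several times the level of Kcnj1, the channel that recycles potassium for it, in each pup. Of potassium channels with other symbols, the lysosomal Tmem175 had 20.7 and 19.1 TPM, and the intracellular channels Tmem38a and Tmem38b had 15.1 and 13.0 and 8.84 and 8.42 TPM.

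Transcript estimates assigned nearly all Kcnj1 RNA to 1 of its 2 transcripts in the tables. Kcnj1-201 held 98.5% of the gene's TPM in pup 1 and 100% in pup 2, and Kcnj1-202 held 1.51% and 0%. The transcripts differ in their first coding bases: the coding sequence of Kcnj1-202 has 1176 bases and that of Kcnj1-201 has 1116, and the additional 60 lie before the shared start. They are shown on GRCm38, chromosome 9, plus strand, the first being the start that the estimates favoured.
Kcnj1-201, chr9:32396342-32396401: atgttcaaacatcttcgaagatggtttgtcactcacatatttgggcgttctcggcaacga
Kcnj1-202, chr9:32394144-32396341, across an intron: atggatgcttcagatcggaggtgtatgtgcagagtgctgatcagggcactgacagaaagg

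Of the 37 detected members, 27 had 2 or more transcripts in the tables. In 26 of these the same transcript led in both pups, in 21 it held at least 50% of TPM on average, and in 25 it was annotated as protein-coding. Kcnq1-201 held 100% and 95.8% of Kcnq1, Kcnj16-202 held 76.0% and 71.8% of Kcnj16 and Kcnk2-202 67.8% and 85.2% of Kcnk2. Kcnj15 was spread over Kcnj15-204 (39.7% and 49.96%), Kcnj15-201 (22.2% and 25.1%) and Kcnj15-206 (29.0% and 12.6%). Kcne1 was split between Kcne1-202 (51.5% and 55.4%) and Kcne1-201 (48.5% and 44.6%). In Kcnh2, the shorter coding transcript Kcnh2-202 held 57.3% and 40.5% and Kcnh2-201 25.9% and 35.3%.

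For Kcnab1 and Kcna6, transcripts annotated as coding held less than 50% of the estimated TPM in each pup. Protein-coding transcripts held an estimated 17.5% and 36.0% of Kcnab1 in pups 1 and 2, whereas Kcnab1-204, a processed transcript that is not annotated as coding, held 57.5% and 56.7%. In Kcna6 the coding share was 0.04% in pup 1 and 44.8% in pup 2, and the leading transcript differed between the pups: Kcna6-201, annotated for nonsense-mediated decay, held 71.0% and 11.9%, and the processed transcript Kcna6-203 held 29.0% and 43.4%. The pups also differed in Kcnma1, with coding shares of 68.1% and 91.0% from 164 and 184 expected counts, and in Kcnab3, with 91.6% and 68.1% from 146 and 181. These differences depend on the estimate. From the authors' posterior mean TPM the coding share in pups 1 and 2 was 41.7% and 40.6% for Kcna6, 82.2% and 89.5% for Kcnma1, and 75.9% and 64.0% for Kcnab3.

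**Figure D4:**
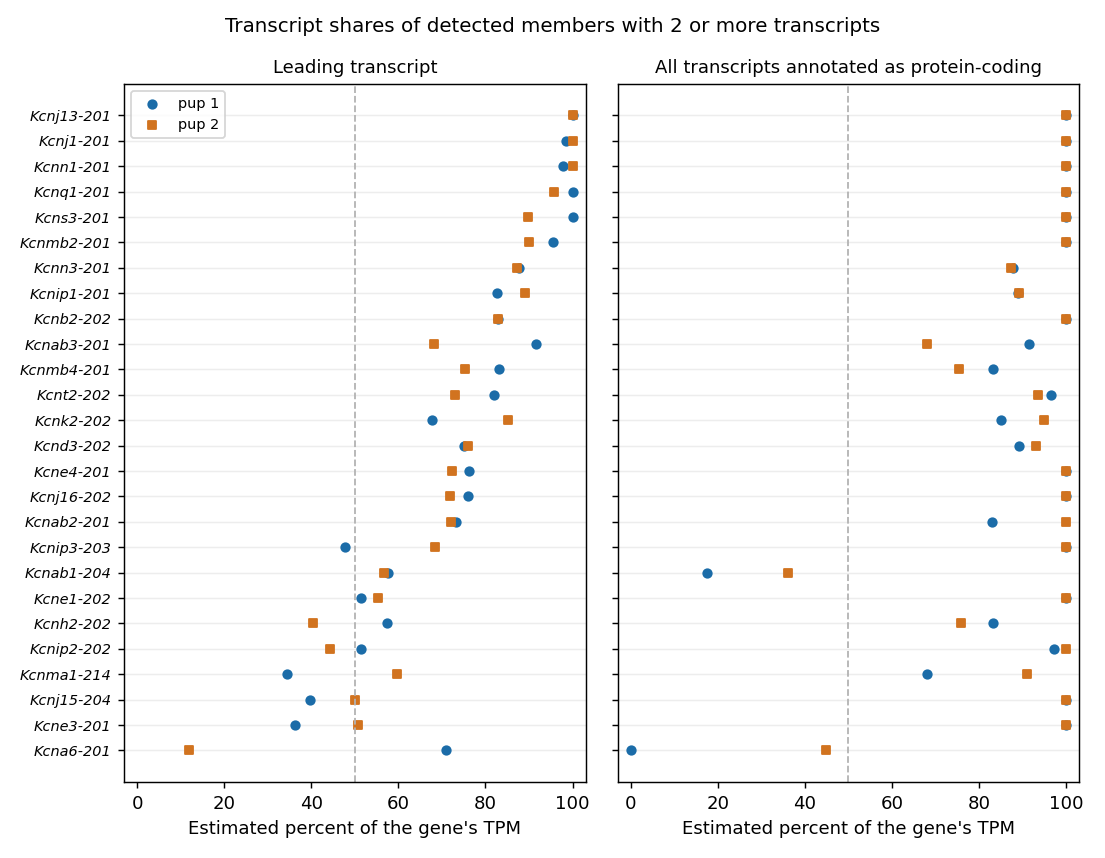
Leading transcript's estimated share of a gene's TPM in percent (left) and the same for all transcripts annotated as protein-coding together (right), for 26 of the 27 detected members with 2 or more transcripts, with circles for pup 1 and squares for pup 2. Kcnj1-201 lies at 98.5% and 100%, while Kcnab1 (17.5% and 36.0% coding) and Kcna6 (0.04% and 44.8% coding) lie lowest in the right panel.

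The pups differed little in these genes. The log2 ratio of pup 1 over pup 2 was computed from counts scaled by the TMM method with 0.1 CPM added, where either pup had 50 expected counts or more. None of the 51 members so measured reached a 2-fold difference, against 0.607% of all 15161 genes (92 genes). At so low a background, a count of 0 among 51 genes is no result about the members. The median absolute log2 ratio was 0.15 for members and 0.10 for all genes. The largest was that of Kcnip3, a calcium-binding subunit that also acts as a transcriptional repressor, at -0.65 from 85 counts in pup 1 and 157 in pup 2 (exact binomial 95% interval -1.08 to -0.29, counting error only). Kcnmb1 had 0.62 (0.18 to 1.14) and Kcnj14 0.62 (0.16 to 1.16), each higher in pup 1. Kcnh1 had -0.57 (-0.88 to -0.29) from 153 and 265 counts. Intervals of some members with more counts and smaller ratios also left out 0, such as Kcnj8 at -0.25 (-0.34 to -0.16). Kcnmb1 lies within Kcnip1 on the opposite strand, but 0% of its exon bases overlap exons of another gene.

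Several members lie side by side in the genome. Within 200 kb of each other were 10 pairs of neighbours, with 18 members. In 7 of these pairs 1 gene was detected and the other was not, in 1 pair both were and in 2 neither. Of all members 40.2% were detected, and of all protein-coding genes 61.5%. The same count was not made for other pairs of genes, and Kcna1 and Kcna2 each belong to more than 1 pair. The counts are thus no result about neighbours. Kcnj16 (16.3 ± 1.85 TPM) and Kcnj2 (0.52 ± 0.0424 TPM) are 38.2 kb apart on chromosome 11. Kcne1 (10.1 ± 0.283 TPM) and Kcne2 (0.1 ± 0.0141 TPM) are 47.9 kb apart on chromosome 16, and Kcnk5 (10.97 ± 1.85 TPM) and Kcnk16 (no expected count) 79.6 kb apart on chromosome 14. Kcnj10 (3.05 ± 0.537 TPM) has Kcnj9 (0.035 ± 0.0212 TPM) at 11.9 kb on chromosome 1. The pair with both detected was Kcnj1 and Kcnj5 on chromosome 9, 28.1 kb apart on opposite strands, at 29.8 ± 2.33 and 1.89 ± 0.0424 TPM. The pairs with neither detected were Kcna3 with Kcna2 and Kcna2 with Kcna10, on chromosome 3.

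CpG dinucleotides near the transcription start, a feature of promoters active in many tissues, were counted in RefSeq windows of 300 bases, from 250 before to 50 after a start, on GRCm38.p6. A window was available for 67 of the 92 members, and a gene with several windows took their mean. The 31 detected members had a median of 10 CpG per window, against 14.8 for the 36 members not detected. Over all protein-coding genes with a window the order was the other way, at 20 for 10341 detected genes against 3 for 5976 genes not detected. The quartiles of the member groups overlapped widely, from 7 to 18.9 for detected members and from 5 to 22.3 for the others, and the difference was not tested. Among the highest members, Kcnj15 had 2 CpG, Kcnj16 4.25, Kcnj8 9 and Kcnk1 10, while Kcnk5 had 26. A RefSeq window need not be the start used in this tissue: that of Kcnj1, with 2 CpG, lies at chr9:32393735-32394034, at the start of Kcnj1-202 and not of Kcnj1-201. Both groups held both extremes: detected Kcnmb4 had 48 CpG, and Kcna10 and Kcnmb1, not detected, had 0 and 1. The windows of Kcnj15 and Kcng3, chosen after their values were seen as a low and a high example, are shown 5′ to 3′, with each CG in capitals.
Kcnj15, 13.1 and 11.8 TPM, chr16:95257308-95257607, plus strand: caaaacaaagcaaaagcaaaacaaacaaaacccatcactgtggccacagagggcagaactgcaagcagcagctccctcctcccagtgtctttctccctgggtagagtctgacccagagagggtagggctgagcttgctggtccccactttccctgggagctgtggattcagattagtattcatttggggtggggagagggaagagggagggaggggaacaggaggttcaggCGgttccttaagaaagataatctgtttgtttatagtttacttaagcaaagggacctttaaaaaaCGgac
Kcng3, 0 and 0.07 TPM, chr17:83631846-83632145, minus strand: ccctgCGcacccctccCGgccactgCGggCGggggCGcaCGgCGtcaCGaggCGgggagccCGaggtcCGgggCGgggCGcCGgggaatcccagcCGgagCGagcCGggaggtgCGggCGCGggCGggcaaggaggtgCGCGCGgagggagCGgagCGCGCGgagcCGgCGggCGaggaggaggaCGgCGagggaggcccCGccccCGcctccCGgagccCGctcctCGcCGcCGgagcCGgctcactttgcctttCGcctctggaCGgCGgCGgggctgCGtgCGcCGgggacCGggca

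**Figure D5:**
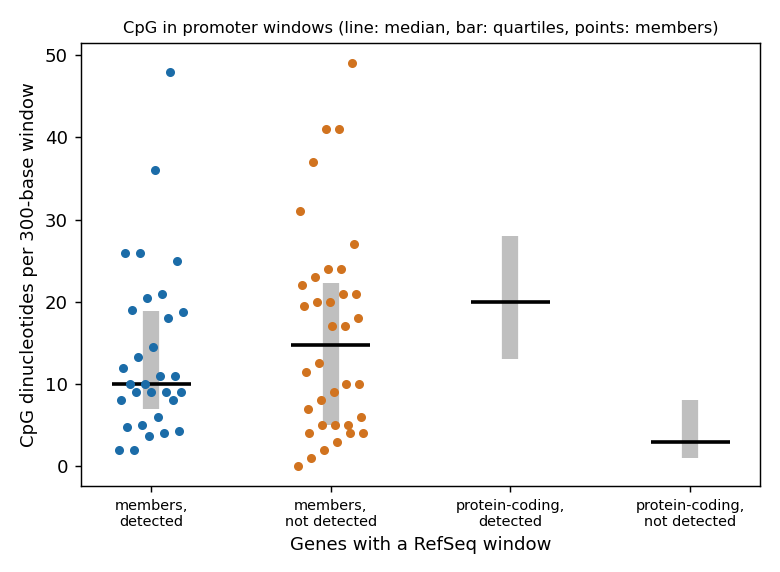
Number of CpG dinucleotides per 300-base RefSeq promoter window for potassium channel genes detected or not at 1 TPM in both pups, and for all protein-coding genes; black lines are medians, grey bars quartiles, and points are single potassium channel genes. Detected members have a median of 10 against 14.8 for members not detected, and all detected protein-coding genes a median of 20 against 3.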

How the data were processed

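Total RNA-seq of newborn kidney was measured in 2 littermates, with an input of 10 ng RNA above 200 nt and added spike-ins, per the labels. The authors deposited, per the file headers, an expected count (estimated, not normalized) and TPM for each gene and transcript, posterior mean versions, and each transcript's percent of its gene's TPM. The deposited text names mm10 and GENCODE M4. The sources used here name no aligner, no quantifier and no strand setting. Reads that fit several genes or isoforms are divided by a model.

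Genes were named by Ensembl identifier from GENCODE M21 of the same assembly, which matched 42462 of 43346. The genes named in the text are every detected member, the highest undetected member of each family, members with no expected count, and all genes of the subunit pairs and partner lists; some other members were added after their values were seen. Some genes under this rule, and 1 sequence, are not reported here. The rule for the members uses symbols and no measured value, but the gene set and the lists were chosen with earlier results of these data known. Expected counts were rounded and scaled with TMM (edgeR 4.0.16, R 4.3.3) or, as an alternative, DESeq2 1.42.0 size factors. The step was tested on simulated data in which every change was larger than 2-fold, so that test does not cover differences near 2-fold. Shared sequence was sought as 50-base windows in M21 transcripts. Python 3.11.15, pandas 2.3.3, NumPy 2.4.6 and Matplotlib 3.10.9 were used. Alternatives were other detection levels, posterior means, TPM over protein-coding genes, other scalings and filters, other pseudocounts and leaving out a pup.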

Additional observations from a re-analysis of the deposited data

How the results depend on the processing

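The count of 37 detected members became 47 at 0.5 TPM, 19 at 2 TPM, 40 at 1 TPM in either pup, 63 at 10 expected counts in both pups, 39 with posterior mean TPM and 37 with TPM rescaled over protein-coding genes alone. Using 1 pup alone gave 38 to 39. No member differed 2-fold between pups with DESeq2 size factors, with the TPM ratio or with 1 CPM added. With a filter of 10 counts 1 did (Kcnq3, 11 and 3 counts), and with no filter 4 did, adding Kcna4, Kcng3 and Kcnk12. The Kcnj share of the members' TPM was 37.5% with posterior means, against 38.4%, and 38.4% in either pup alone. The members' summed TPM of 253 became 295 over protein-coding genes alone and 245 to 260 in 1 pup alone. Posterior means raised single levels by up to 1.55 times, for Kcnip2, and 1.44 times, for Kcnab2. Of the 20 subunit pairs, 13 were 2-fold apart in both pups, 14 with 0.1 TPM added (Kcnmb1 to Kcnmb4 being the pair gained), and 13 in either pup alone. Leading transcripts held at least 50% in 21 genes, in 19 with posterior means and in 23 in each pup alone, and the leading transcript changed with posterior means in Kcna6 alone. The CpG difference between detected and other members was -4.75, and -3.5 at 2 TPM. The ratio of Kcnma1 to Kcnmb4, under 2-fold throughout, was 0.02 and took either sign, from -0.07 to 0.11 in 1 pup alone. No paired analysis was possible because there is 1 group. Depth limits genes with few counts, such as Kcnj11 with 9 and 4.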
